A study of Mus musculus with 12 samples.

Results

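Egg activation calcium channels and pumps were followed here as 8 transcripts in fully grown mouse oocytes at the germinal vesicle (GV) stage, before meiosis resumes. The 8 rows Itpr1, Cacna1h, Trpm7, Trpv3, Stim1, Orai1, Atp2a2 and Atp2b1 were taken by gene symbol from a table of 24255 genes. Each of 12 libraries was amplified from 20 oocytes by Smart-seq2, which copies polyadenylated RNA from small numbers of cells, and 3 libraries belonged to each of 4 groups. The study asked how loss of Dpagt1, the first enzyme of dolichol-linked N-glycan synthesis, alters the oocyte.

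All groups were C57BL/6 mice of 3 weeks, primed with 5 IU of PMSG (pregnant mare serum gonadotropin) and sampled 46 h later. WT was the wild type, and the labels give it neither a floxed allele nor Cre. MUT carried an ENU-induced change of aspartic acid 166 of Dpagt1 to glycine in every cell of the body. GcKO (Dpagt1F/F Gdf9CRE/+) and AmcKO (Dpagt1F/F Amhr2CRE/+) shared the floxed Dpagt1 allele and differed in the driver of Cre. The Gdf9 promoter drives Cre in oocytes, and the Amhr2 locus drives it in granulosa cells, so the AmcKO oocytes themselves were not the target of deletion. No label says that the 3 libraries of a group came from separate animals, so p-values measure the spread between libraries, which may be technical.

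At fertilization the sperm phospholipase C zeta makes inositol trisphosphate in the egg, and the type 1 receptor for it, encoded by Itpr1, releases Ca2+ from the endoplasmic reticulum (ER). The ATPase SERCA2 (Atp2a2) refills the ER, and the plasma membrane ATPase PMCA1 (Atp2b1) extrudes Ca2+ from the cell. Influx that sustains the oscillations in mouse eggs has been assigned to the T-type channel CaV3.2 (Cacna1h) and to TRPM7, and TRPV3 is a further Ca2+-permeable channel of mature eggs. STIM1, the ER sensor of store content, and ORAI1, the pore it opens, form the store-operated pathway.

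The genes lie on 7 chromosomes of the mouse genome, build GRCm38 (mm10). Atp2a2 (chr5:122453513-122502225, minus strand) and Orai1 (chr5:123015074-123030456, plus strand), the only members that passed the test below, lie on chromosome 5 with 512849 bases between them. Atp2b1 lies at chr10:98914406-99026143, Itpr1 at chr6:108213096-108551109 and Stim1 at chr7:102267806-102437319, each on the plus strand. Trpv3 lies at chr11:73267388-73300363 on the plus strand, and Trpm7 (chr2:126791565-126876230) and Cacna1h (chr17:25374285-25433783) lie on the minus strand. FPKM values are summed over whole genes and do not separate exons or isoforms.

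RefSeq promoter sequence (GRCm38.p6, 250 bases before a transcript start) was matched for 5 of the 8 genes, Trpm7, Trpv3, Stim1, Orai1 and Atp2b1. The windows of Orai1, Stim1 and Atp2b1 are printed because they set the member that rose beside its partner in store-operated entry and beside the pump that did not pass the test. They are written 5′ to 3′ along each gene, with capitals marking CCAAT boxes (CCAAT) and GC boxes (GGGCGG), searched on both strands. The Atp2b1 window is chr10:98914902-98915151, the Orai1 window is chr5:123014824-123015073 and the Stim1 window is chr7:102267569-102267818, each on the plus strand.
Orai1: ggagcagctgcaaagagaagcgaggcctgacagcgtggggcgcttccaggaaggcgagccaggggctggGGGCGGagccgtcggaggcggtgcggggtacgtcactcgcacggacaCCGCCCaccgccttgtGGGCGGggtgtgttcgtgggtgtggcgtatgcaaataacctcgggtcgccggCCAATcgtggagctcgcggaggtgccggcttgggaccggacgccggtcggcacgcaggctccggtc
Stim1: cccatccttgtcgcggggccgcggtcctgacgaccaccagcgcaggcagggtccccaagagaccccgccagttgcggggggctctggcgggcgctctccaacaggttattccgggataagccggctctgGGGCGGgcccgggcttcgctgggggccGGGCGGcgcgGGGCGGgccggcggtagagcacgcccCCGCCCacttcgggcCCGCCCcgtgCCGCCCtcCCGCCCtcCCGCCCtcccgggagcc
Atp2b1: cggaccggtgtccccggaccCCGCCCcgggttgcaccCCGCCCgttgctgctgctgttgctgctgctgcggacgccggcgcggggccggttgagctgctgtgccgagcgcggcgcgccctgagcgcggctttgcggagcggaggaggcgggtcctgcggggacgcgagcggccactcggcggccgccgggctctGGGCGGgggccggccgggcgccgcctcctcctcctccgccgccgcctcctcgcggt

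The Orai1 window held 1 CCAAT box, 66 bases before the start, and 3 GC boxes, and 70.8% of its bases were G or C. The Stim1 window held 8 GC boxes and no CCAAT box, with 78.4% G or C. The Atp2b1 window held 3 GC boxes at 80.8% G or C, and a further Atp2b1 start upstream of it had 4. Among 32851 promoter windows of this length, 33.8% held a CCAAT box and 32.7% a GC box, so a match of either kind is common. How often a window holds several GC boxes was not counted, and windows were not matched for G or C content. None of the 5 genes held a TATA box (TATAAA, 12.4% of windows), a cAMP response element (TGACGTCA, 1.55%) or an ER stress element (named ERSE, whose first bases are a CCAAT box, 0.113%). Such matches describe letters in a window and are not evidence of binding.

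FPKM, the unit of the deposited values, is scaled to transcript length, so levels can be compared between genes. Averaged over the 12 libraries, Atp2a2 was the most abundant of the 8 at 52.2 FPKM, followed by Atp2b1 at 16.8 and Orai1 at 15.9. Atp2b1 and Orai1 changed places between groups, with Atp2b1 the higher in WT and Orai1 the higher in MUT. Itpr1 at 2.91 FPKM and Trpm7 at 2.18 FPKM came next, and their ranges overlapped. Cacna1h averaged 0.375 FPKM and Stim1 0.158 FPKM, and Trpv3 was listed at 0 in all 12 libraries. A listed 0 need not mean that a transcript was absent. Of 80 genes picked by ribosomal protein names, a class used in every cell, 8 were also listed at 0 throughout. Variant forms among these names may be truly absent.

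**Figure D1:**
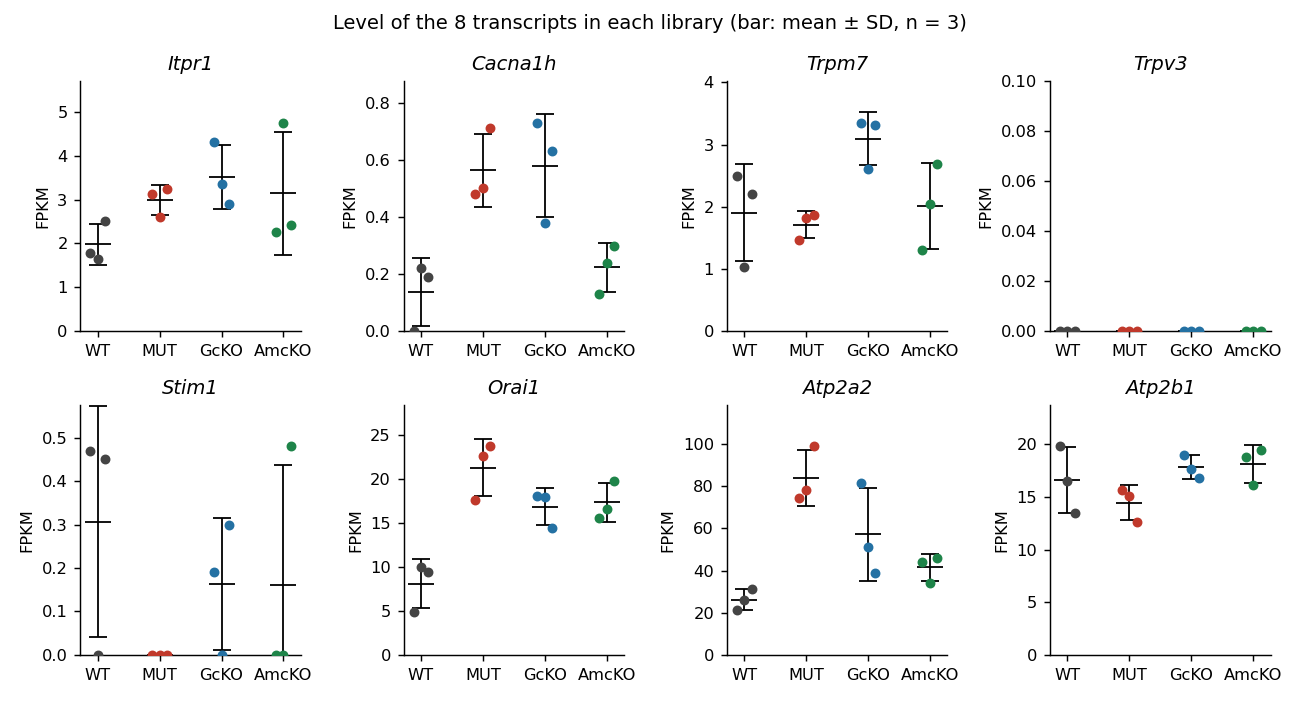
Levels of the 8 transcripts as FPKM on linear axes, 1 point per library, with the mean and SD of 3 libraries for each group. Atp2a2 and Orai1 lay higher in all 3 MUT libraries than in any WT library, Atp2b1 stayed between 12.6 and 19.8 FPKM, and Trpv3 was listed at 0.

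Differences between groups were tested with limma on log2(FPKM + 1) over the 11233 genes that reached 1 FPKM in at least 1 library, with Benjamini-Hochberg adjustment over all of them. Itpr1, Trpm7, Orai1, Atp2a2 and Atp2b1 passed this filter, and their lowest value in any library was 1.03 FPKM. In MUT against WT, 2 of the 5 tested members were called at an adjusted p below 0.05, both higher, where 9.46% of all genes were called higher and 20.8% were called in either direction. In GcKO against WT the same 2 members, Atp2a2 and Orai1, were called higher, where 8.71% of all genes were called higher and 20.2% in either direction. Fold changes are on the log2(FPKM + 1) scale, which understates changes of low transcripts.

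Among the pumps, Atp2a2 rose in both MUT and GcKO. Its level in WT was 21.3, 26.2 and 31.3 FPKM. In MUT it was 74.6, 78.1 and 98.9 FPKM, in GcKO 81.5, 51.1 and 38.9 FPKM, and in AmcKO 44.2, 34.3 and 46.2 FPKM. Every library of the other groups exceeded every WT library, the MUT libraries clustered high, and GcKO spread over a wide range that overlapped MUT and AmcKO. The means were 26.3 ± 4.99 (SD, n = 3) in WT and 83.9 ± 13.2 (SD, n = 3) in MUT, a ratio of 3.19. The log2 difference of MUT from WT was 1.64 (SE 0.25, 95% interval 1.11 to 2.18, limma adjusted p = 5.4e-04). The mean in GcKO was 57.2 ± 22.0 (SD, n = 3), with a log2 difference from WT of 1.04 (SE 0.25, 95% interval 0.51 to 1.58, limma adjusted p = 0.00947).

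The same pump in AmcKO, at 41.6 ± 6.37 (SD, n = 3), had a log2 difference from WT of 0.65 (95% interval 0.11 to 1.18), which did not pass (limma adjusted p = 0.242). GcKO against MUT gave -0.60 (95% interval -1.14 to -0.07, limma adjusted p = 0.64), and GcKO against AmcKO gave 0.40 (95% interval -0.14 to 0.93, limma adjusted p = 0.433). Neither comparison of mutant groups separated them for Atp2a2, and the intervals leave room for more than a 2-fold lower level in GcKO than in MUT. The GcKO call for Atp2a2 held when any 1 library was left out but not when WT and GcKO were fitted without the other groups (limma adjusted p = 0.0906). The MUT call held in every alternative run.

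Atp2b1, the plasma membrane pump, gave no call. It was at 19.8, 16.5 and 13.5 FPKM in WT, 15.7, 15.1 and 12.6 in MUT, 19.0, 17.7 and 16.8 in GcKO, and 18.8, 16.1 and 19.5 in AmcKO. The groups overlapped except for MUT, whose highest library lay below the lowest of GcKO and AmcKO. The log2 difference of MUT from WT was -0.17 (SE 0.20, 95% interval -0.59 to 0.24, limma adjusted p = 0.564). GcKO differed from WT by 0.11 (95% interval -0.31 to 0.53, limma adjusted p = 0.734) and AmcKO by 0.13 (95% interval -0.29 to 0.55, limma adjusted p = 0.777). These intervals exclude a 2-fold change in the means as scaled by the authors, but not a smaller one.

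In the store-operated pathway, Orai1 rose in MUT and GcKO while its sensor Stim1 was at trace level. Orai1 was at 4.89, 9.94 and 9.47 FPKM in WT. It was at 17.6, 22.6 and 23.7 FPKM in MUT, at 18.1, 18.0 and 14.4 in GcKO, and at 15.6, 16.6 and 19.8 in AmcKO. All 9 libraries outside WT exceeded the highest WT library, and the ranges of those 3 groups overlapped. The means were 8.10 ± 2.79 (SD, n = 3) in WT and 21.3 ± 3.28 (SD, n = 3) in MUT, a ratio of 2.63, with a log2 difference of 1.34 (SE 0.25, 95% interval 0.80 to 1.87, limma adjusted p = 0.00218). GcKO, at 16.8 ± 2.10 (SD, n = 3), differed from WT by 1.02 (95% interval 0.48 to 1.55, limma adjusted p = 0.0112).

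AmcKO oocytes had Orai1 at 17.3 ± 2.17 (SD, n = 3), a ratio to WT of 2.14 and a log2 difference of 1.06 (95% interval 0.52 to 1.59). That difference was as large as in GcKO but was not called, with an unadjusted p of 8.8e-04 and an adjusted p of 0.0975 by limma, in a comparison where 0.214% of all genes were called. GcKO against AmcKO gave -0.04 (95% interval -0.58 to 0.50, limma adjusted p = 0.978), and GcKO against MUT -0.32 (95% interval -0.86 to 0.22, limma adjusted p = 0.925). MUT was not tested against AmcKO. As for Atp2a2, the GcKO call was lost when only GcKO and WT were fitted (limma adjusted p = 0.0829), and the MUT call was not.

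Stim1 was at 0.47, 0 and 0.45 FPKM in WT, listed at 0 in all 3 MUT libraries, at 0.19, 0 and 0.30 in GcKO, and at 0, 0 and 0.48 in AmcKO. If the smallest value of a gene corresponds to 1 sequenced fragment, these values stand for 0 to 2 fragments per library. A difference between groups was not detectable at this depth. Without a filter on low values the MUT difference from WT was -0.36 on the log2 scale (limma adjusted p = 0.249 over 14933 genes).

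Itpr1, the release channel, was at 1.78, 1.65 and 2.52 FPKM in WT and 3.13, 2.60 and 3.24 in MUT. It was at 4.32, 3.35 and 2.89 FPKM in GcKO and at 2.26, 4.75 and 2.41 in AmcKO. MUT and GcKO lay above the highest WT library, AmcKO overlapped WT, and 1 AmcKO library, replicate 5, was the highest of all 12. The log2 differences from WT were 0.43 in MUT (95% interval -0.22 to 1.07, limma adjusted p = 0.34), 0.60 in GcKO (95% interval -0.05 to 1.24, limma adjusted p = 0.18) and 0.43 in AmcKO (95% interval -0.21 to 1.08, limma adjusted p = 0.504). None passed, and each interval admits a 2-fold higher level. The paralogue Itpr2, an inositol trisphosphate receptor of the same family, was more abundant than Itpr1, at 19.6 ± 3.36 FPKM (SD, n = 3) in WT and 16.5 ± 1.10 (SD, n = 3) in MUT.

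Trpm7, a divalent cation channel fused to a kinase, was at 2.49, 1.03 and 2.20 FPKM in WT, 1.46, 1.82 and 1.86 in MUT, 3.35, 2.60 and 3.32 in GcKO, and 1.30, 2.04 and 2.68 in AmcKO. GcKO lay above all WT and all MUT libraries and overlapped AmcKO. Its log2 difference from WT was 0.53 (95% interval -0.14 to 1.19, limma adjusted p = 0.254) and from MUT 0.59 (95% interval -0.07 to 1.25, limma adjusted p = 0.821). MUT differed from WT by -0.06 (95% interval -0.73 to 0.60, limma adjusted p = 0.921). No comparison called Trpm7.

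Cacna1h stayed below 1 FPKM in every library and so was outside the main test. It was at 0, 0.22 and 0.19 FPKM in WT, 0.48, 0.50 and 0.71 in MUT, 0.73, 0.38 and 0.63 in GcKO, and 0.13, 0.24 and 0.30 in AmcKO. All MUT and GcKO libraries exceeded all WT and AmcKO libraries. On the assumption that the smallest value is 1 fragment, the 3 libraries together held 2 fragments in WT, 18 in MUT, 19 in GcKO and 6 in AmcKO. Each library was rounded to whole fragments, and MUT replicate 1, at 5.3 before rounding, did not meet the assumption exactly. The value of 1 fragment, estimated from the ratios of low values between libraries, was 2.28 to 2.66 times larger in the WT libraries than in MUT replicate 2, and 1.00 to 1.21 times in MUT, so WT was the group sequenced with the fewest fragments per FPKM. Without the filter on low values, the log2 difference from WT was 0.46 in MUT (95% interval 0.12 to 0.80, limma adjusted p = 0.0725) and 0.47 in GcKO (95% interval 0.13 to 0.81, limma adjusted p = 0.0679), and neither passed.

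**Figure D2:**
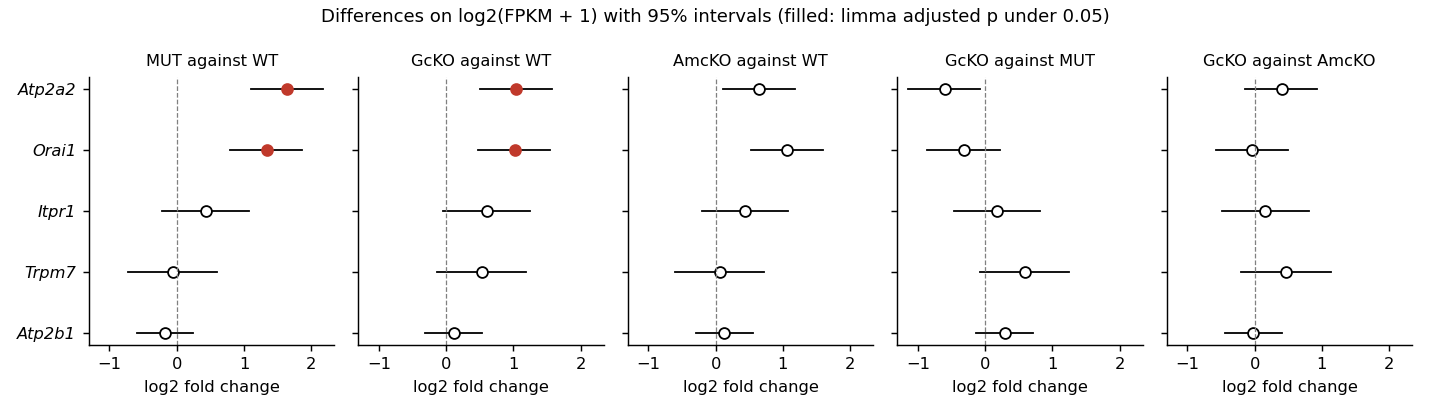
Differences between groups on the log2(FPKM + 1) scale for the 5 members tested, with 95% intervals from limma and filled points for an adjusted p below 0.05. Only Atp2a2 and Orai1 are filled, in MUT and GcKO against WT, and the Orai1 interval in AmcKO against WT, 0.52 to 1.59, also lies above 0.

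Values above every WT library were found for 3 of the 5 tested members in MUT (Itpr1, Orai1 and Atp2a2), where 20.2% of all genes did the same. In GcKO it was 4 of 5, with Trpm7 added, against 18.2% of all genes, and in AmcKO 2 of 5 (Orai1 and Atp2a2) against 9.22%. The median log2 difference of the tested members was 0.43 in MUT, 0.60 in GcKO and 0.43 in AmcKO, where the median of all genes was 0.12, 0.12 and 0.03. With a correction for transcript length, chosen after seeing the data, the median of all genes was 0.03 in MUT and in GcKO. Atp2a2 was then at 1.38 and 0.74, and Orai1 at 1.36 and 1.09. Itpr1 was at 0.10 and 0.19, Trpm7 at -0.35 and 0.18, and Atp2b1 at -0.46 and -0.24. In the reported fit limma called 0 members in AmcKO against WT, with 2 of 5 at an unadjusted p below 0.05, as were 15.6% of all genes. GcKO against MUT also gave 0 members, with 1 at an unadjusted p below 0.05 (6.60% of all genes), where 0.205% of all genes were called. GcKO against AmcKO gave 0 members, with 0 at an unadjusted p below 0.05 (19.3% of all genes), where 5.46% of all genes were called. The comparisons against WT share the WT libraries and are not independent of each other.

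The scale of the libraries differed with genotype. The FPKM of all genes in a library summed to between 1167362 and 1226005 in WT and between 883256 and 1107925 in AmcKO, whereas the MUT sums ran from 589617 to 611597 and the GcKO sums from 482314 to 684212, and 9359 to 9622 genes were above 0 in WT against 11208 to 11467 in MUT. WT and AmcKO were numbered 4 to 6 and MUT and GcKO 1 to 3, so a batch that follows those numbers cannot be told apart from genotype, except in AmcKO against WT and GcKO against MUT. Dpagt1 itself gave no check of the labels, since it was listed at 0 in all WT and AmcKO libraries and in 2 GcKO libraries, at 0.37 FPKM in GcKO replicate 2, and at 0.88, 0.41 and 0.98 FPKM in MUT. All 10 oocyte markers were detected in each group. Their summed FPKM was lower in the libraries of the other groups, at most 8554 in AmcKO, 7656 in MUT and 7928 in GcKO where the lowest WT library had 9904, and its part in the results was not tested. The FPKM sums of all genes, given above, were also lower there, and the marker sums were not scaled by them.

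Ratios within a library do not depend on its scale. Atp2a2 was 1.07 to 2.32 times Atp2b1 in the WT libraries and 4.75 to 7.84 times in MUT, with no overlap. In GcKO the ratio ran from 2.31 to 4.30 and in AmcKO from 2.13 to 2.37, and both overlapped WT. Orai1 was between 0.247 and 0.701 times Atp2b1 in WT, between 1.12 and 1.88 times in MUT, between 0.856 and 1.02 times in GcKO and between 0.831 and 1.03 times in AmcKO, with every library outside WT above every WT library. With 3 libraries against 3, the 2-sided exact permutation p of 0.1 for each of these separations from WT is the smallest the design allows. A ratio shows unequal change of its members and does not say which of them moved.

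**Figure D3:**
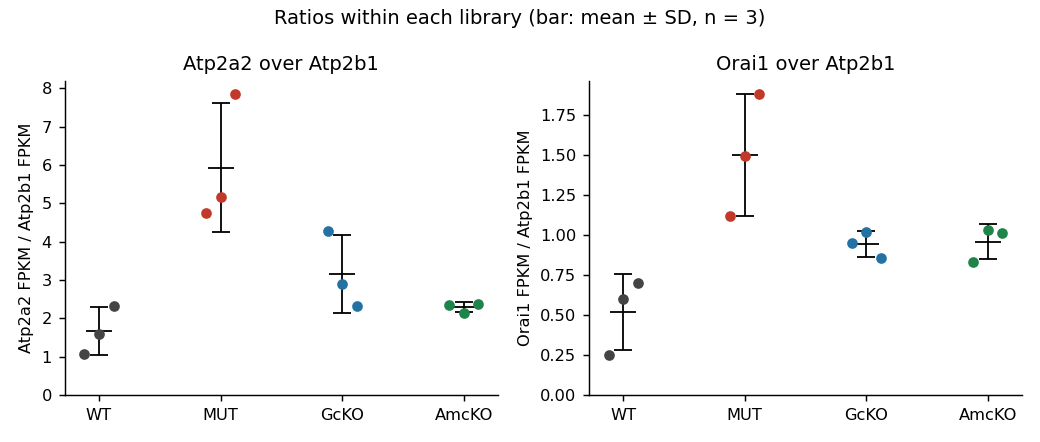
Atp2a2 FPKM and Orai1 FPKM, each divided by Atp2b1 FPKM in the same library, with the mean and SD of 3 libraries and axes from 0. MUT stands apart for Atp2a2, from 4.75 to 7.84, whereas for Orai1 the MUT, GcKO and AmcKO libraries all lie above the WT libraries.

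When every library was instead scaled to the same FPKM sum, the median of all genes shifted to 0.70 in MUT and 0.73 in GcKO, and changes are to be read relative to it. Atp2a2 was then at 2.61 in MUT and 2.05 in GcKO, and Orai1 at 2.23 and 1.95, all called by limma. Under the same scaling Atp2b1, at 0.76 in MUT and 1.09 in GcKO, was called higher, and its sign in MUT turned. With quantile normalization the median of all genes was 0.03 in both comparisons. Atp2a2 was then at 1.92 and 1.34 and Orai1 at 1.28 and 0.95, all called, and Atp2b1 was not called. The direction of Atp2a2 and Orai1 in MUT and GcKO against WT was upward in each scaling run.

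**Figure D4:**
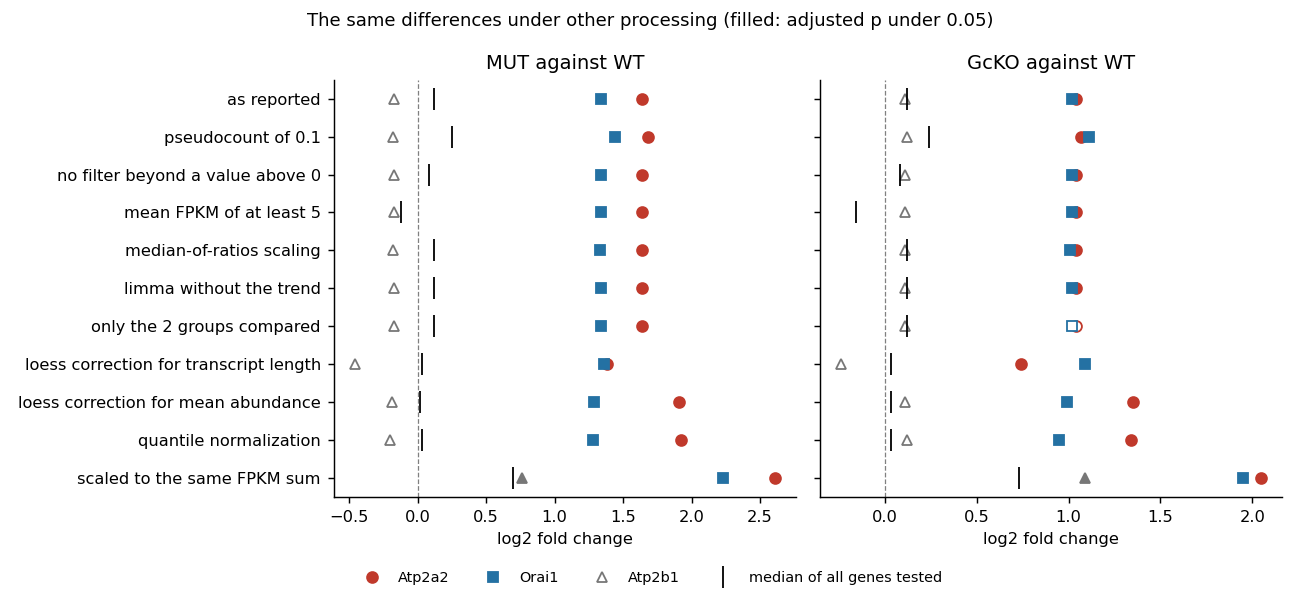
Log2 differences of Atp2a2, Orai1 and Atp2b1 from WT under each processing alternative, for MUT and GcKO, with filled symbols for an adjusted p below 0.05 and a vertical tick at the median of all genes tested. Atp2a2 and Orai1 lie above that median in each row, whereas Atp2b1 is filled only when libraries are scaled to the same FPKM sum.

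Granulosa markers were low, but some moved with MUT and GcKO. The summed FPKM of 15 markers lay between 17.6 and 23.5 in WT, between 17.0 and 31.1 in MUT, between 15.2 and 29.6 in GcKO and between 11.6 and 22.7 in AmcKO, with 10, 6, 6 and 8 of the 15 listed at 0 in these groups. Without Cyp19a1, the aromatase gene and the marker at 17.4 ± 2.53 FPKM (SD, n = 3) in WT and 10.6 ± 2.45 (SD, n = 3) in MUT, the other 14 gave sums between 2.53 and 3.93 in WT, between 7.51 and 17.7 in MUT, between 7.64 and 8.73 in GcKO and between 1.67 and 3.45 in AmcKO. Amh, Amhr2, Foxl2, Lhcgr and Tnfaip6 were listed at 0 in every group. Gja1, Inha and Hsd17b1 were listed at 0 in WT and averaged 3.30, 4.00 and 1.93 FPKM in MUT. In GcKO they averaged 0.833, 0.808 and 0.319 FPKM, with Hsd17b1 listed at 0 in 2 libraries. Inhba and Has2 were also listed at 0 throughout WT but not throughout MUT. Ptgs2 went the other way, listed at 0 throughout MUT and AmcKO but not throughout WT. In AmcKO the sum of the 14 markers overlapped that of WT. The part of the granulosa markers in the Atp2a2 and Orai1 results was not tested.

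The rest of the calcium machinery was read from a list of 130 other genes in 8 roles, of which 63 passed the filter and 26 were listed at 0 in every library. In MUT against WT, limma called 8 lower and 7 higher, 23.8% of those tested. In GcKO against WT it called 7 lower and 5 higher, 19.0%. Both shares are close to those of all genes given above. The medians of the list, 0.19 in MUT and 0.20 in GcKO, were also near the 0.12 of all genes.

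The falls in the list included its most abundant transcripts. Calm2, 1 of the genes for calmodulin, the cytoplasmic Ca2+ sensor, fell from 6899 ± 145 FPKM (SD, n = 3) in WT to 2125 ± 112 (SD, n = 3) in MUT and 1849 ± 531 (SD, n = 3) in GcKO. Canx, encoding the ER lectin chaperone calnexin that binds N-glycoproteins, fell from 374 ± 31.9 (SD, n = 3) to 143 ± 14.4 (SD, n = 3) in MUT and 116 ± 20.4 (SD, n = 3) in GcKO. The log2 differences from WT were -1.70 for Calm2 and -1.39 for Canx in MUT, and -1.94 and -1.68 in GcKO, with limma adjusted p of 1.5e-04, 1.1e-04, 9.7e-05 and 3.9e-05. Atp2c1, the Golgi Ca2+ and manganese pump SPCA1, fell by 1.27 in MUT and fell by 1.15 in GcKO on the log2 scale (limma adjusted p = 3.0e-04 and 5.6e-04), the opposite direction to Atp2a2 within the pumps. Vdac2, a channel of the mitochondrial outer membrane, fell by 1.39 in MUT and fell by 1.35 in GcKO on the log2 scale (limma adjusted p = 0.00222 and 0.00262), and Selk, an ER selenoprotein, fell by 1.16 in GcKO (limma adjusted p = 6.0e-04). These falls were smaller with libraries scaled to the same FPKM sum. They are to be read relative to the median of all genes, then 0.70 in MUT and 0.73 in GcKO. Calm2 was then at -0.70 in MUT and -0.90 in GcKO and Canx at -0.39 and -0.65, all called lower by limma. Vdac2 was at -0.40 and -0.32, Atp2c1 at -0.28 and -0.12, and Selk in GcKO at -0.12, and none of these was called.

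The rises named by the same rule were in transcripts at lower levels. Calu, encoding the secretory pathway Ca2+-binding protein calumenin, rose from 10.7 ± 4.16 FPKM (SD, n = 3) in WT to 25.9 ± 4.42 (SD, n = 3) in MUT and 29.4 ± 5.85 (SD, n = 3) in GcKO, with limma adjusted p of 0.00635 and 0.00292. Fyn, a Src-family kinase, rose by a log2 difference of 1.19 in MUT and 0.88 in GcKO (limma adjusted p = 0.00345 and 0.0183). Vdac1, with 1 WT library listed at 0, rose by 2.13 in MUT and 1.53 in GcKO (limma adjusted p = 0.00364 and 0.0229), in the opposite direction to Vdac2. Pdia4, an ER disulfide isomerase, rose by 1.46 in MUT (limma adjusted p = 0.0210), and Camk2g, the calmodulin-dependent kinase that acts in egg activation, rose by 0.89 in GcKO (limma adjusted p = 0.0355). In AmcKO the Vdac1 difference from WT was 1.83 (95% interval 0.90 to 2.76), which was not called (limma adjusted p = 0.0975). All AmcKO libraries lay above all WT libraries for Vdac1. The other rises named were smaller in AmcKO, at 0.80 for Calu, 0.46 for Fyn, 0.15 for Pdia4 and 0.08 for Camk2g, and none was called. Single libraries decided some of the calls in MUT and GcKO. In GcKO, Vdac1 was lost without WT replicate 6 or GcKO replicate 1 or 2 (limma adjusted p of up to 0.0772) and Fyn without WT replicate 4 or GcKO replicate 1 (up to 0.0814). Camk2g in GcKO was lost without any 1 library other than WT replicate 4 (up to 0.106), and Pdia4 in MUT without WT replicate 4 or MUT replicate 1 or 2 (up to 0.0681). With only the 2 groups compared in the fit, Vdac1 was lost in MUT and GcKO (limma adjusted p = 0.0720 and 0.141). Pdia4 in MUT (0.126) and Fyn in GcKO (0.11) were lost there too, and the other rises named here were not.

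**Figure D5:**
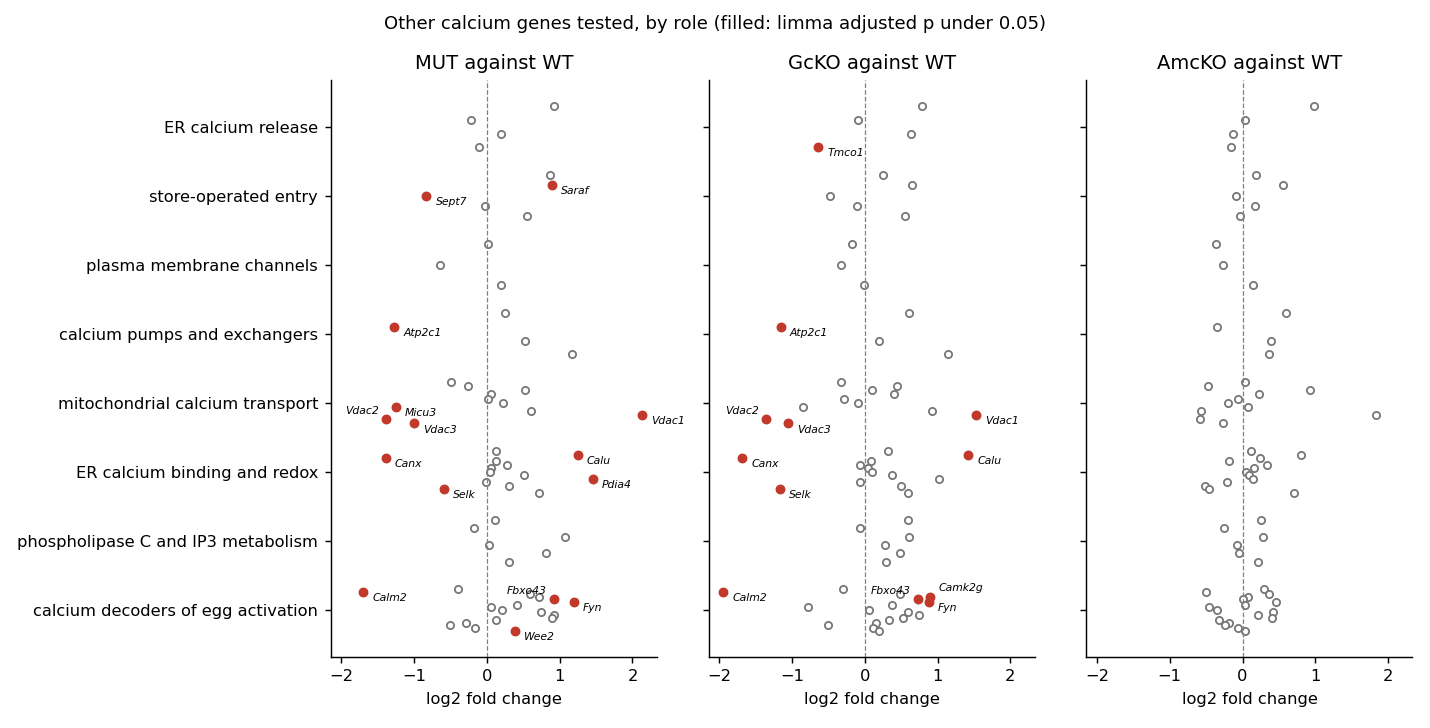
Log2 differences from WT of the 63 other calcium genes tested, grouped by role, for MUT, GcKO and AmcKO, with filled points and gene symbols for a limma adjusted p below 0.05. Called genes lie on both sides of 0 in MUT and GcKO, and AmcKO has none.

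By role, limma called 0 of 3 tested plasma membrane channels of the list in MUT or GcKO, where 20.8% and 20.2% of all genes were called. At an unadjusted p below 0.05 there were also 0, against 34.1% and 33.7% of all genes, and 26 such genes were in the table. Store-operated entry, without the members Orai1 and Stim1, had 1 lower (Sept7) and 1 higher (Saraf) of 5 tested in MUT and none in GcKO. With so few genes, these counts do not separate a role from all genes. Saraf, the inhibitor that slows STIM1-ORAI1 entry, was singled out after its values were seen. Its mean rose from 22.8 ± 4.69 FPKM (SD, n = 3) in WT to 43.2 ± 9.28 (SD, n = 3) in MUT, a log2 difference of 0.89 (limma adjusted p = 0.0279), and the call was lost without WT replicate 6 or MUT replicate 2 or 3, with adjusted p of up to 0.11. Fbxo43, the EMI2 gene whose protein is destroyed after the Ca2+ rise, was likewise singled out after its values were seen. It rose by 0.92 in MUT and 0.73 in GcKO (limma adjusted p = 0.0109 and 0.0347). The MUT call was lost without MUT replicate 2 (limma adjusted p = 0.0538), and the GcKO call without any 1 library other than WT replicate 4 (limma adjusted p of up to 0.106). With only the 2 groups compared in the fit, Saraf in MUT and Fbxo43 in GcKO were also lost (limma adjusted p = 0.0502 and 0.0537).

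AmcKO oocytes gave 0 calls in the calcium list by limma, with 7 of 63 genes at an unadjusted p below 0.05, where 15.6% of all genes were. GcKO against MUT gave 0 calls with 3 of 63 at an unadjusted p below 0.05, where 6.60% of all genes were. Neither count stands above the background. GcKO against AmcKO gave 5 lower and 0 higher, 7.94% of those tested, namely Canx, Calm2, Atp2c1, Vdac3 and Selk. Of all genes 5.46% were called, and they leaned the same way, with 538 lower and 75 higher. Canx was the clearest of these, at 116 ± 20.4 FPKM (SD, n = 3) in GcKO and 440 ± 34.1 (SD, n = 3) in AmcKO. Atp2a2 and Orai1, in contrast, gave no call between GcKO and AmcKO. Without GcKO replicate 1, GcKO replicate 2 or AmcKO replicate 4, the count of 5 fell to 2, and it was 0 when only GcKO and AmcKO were fitted.

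Across the 12 libraries, the log2 values of Atp2a2 were most like those of Plxna4 and Kcnh1, both with a Pearson correlation of 0.97. Orai1 was most like Gnat2 at 0.95 and H1f0 at 0.94, and Orai1 and Atp2a2 correlated with each other at 0.85. Atp2b1 correlated with Atp2a2 at -0.33 and with Orai1 at -0.27, and was most like Dmc1 at 0.86 and Snrpb at 0.85. Itpr1 was most like Ppp1r13b at 0.91 and Clec4b2 at 0.89, and Trpm7 most like Sgcd at 0.91 and Bfar at 0.87. The libraries share their group and scale, so these values over 12 libraries are descriptions only, and several of the closest genes were themselves low, with Plxna4 between 1.01 and 3.95 FPKM.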

How the data were processed

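The 12 libraries of pooled GV oocytes were sequenced as paired 150-base reads. Per the labels, the authors aligned trimmed reads to mm10 with TopHat2 2.0.13, and deposited FPKM values per gene made with Cufflinks 2.2.1. The labels name both a KAPA and a NEBNext library kit. The handling of reads shared between near-identical genes is not given in the sources used here, which bears on Calm2 and the Vdac genes. Another 18 columns with the authors' own comparisons were not used. Read depth is unknown.

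Values were transformed to log2(FPKM + 1). Genes with at least 1 FPKM in at least 1 library were fitted with limma 3.58.1 (R 4.3.3, abundance trend, 12 libraries, 4 groups, 8 residual degrees of freedom), and a call is a Benjamini-Hochberg adjusted p below 0.05. The script was tested on simulated data. The members and gene lists were chosen with earlier results of these data known. Named list genes were up to 4 with the largest called falls and rises against WT, with values that did not overlap WT. Between mutant groups they were up to 4 called genes by adjusted p. The 2 genes most like each tested member were named. Alternatives changed the pseudocount, filter, scaling, model and libraries. Loci come from GENCODE M21.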

Additional observations from a re-analysis of the deposited data

Results flagged for a closer look

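In 5 genes of the calcium list the effect in GcKO differed from that in AmcKO by a direct limma test of the difference, which is the difference between their effects against WT. The log2 difference of GcKO from AmcKO was -1.92 for Canx (adjusted p = 4.9e-05 by limma) and -1.44 for Calm2 (adjusted p = 0.00188 by limma). It was -0.80 for Atp2c1 (adjusted p = 0.0163 by limma), -0.77 for Vdac3 (adjusted p = 0.0292 by limma) and -0.69 for Selk (adjusted p = 0.0382 by limma), the last named after its values were seen. In each of these genes all 3 GcKO libraries lay below all 3 AmcKO libraries.

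With only GcKO and AmcKO in the fit none of the 5 was called, at adjusted p of 0.0600 for Canx, 0.149 for Calm2, 0.168 for Atp2c1, 0.203 for Vdac3 and 0.21 for Selk by limma. With libraries scaled to the same FPKM sum, Canx was at -1.18 and Calm2 at -0.69, both called, while Atp2c1 at -0.07, Vdac3 at -0.03 and Selk at 0.05 were not. Canx and Calm2 were called with any 1 library left out, whereas Atp2c1, Vdac3 and Selk were each lost without GcKO replicate 1 or 2 or AmcKO replicate 4 or 5. Of the 5 channels and pumps tested, none was called in this comparison in the reported fit. After scaling to the same FPKM sum 2 (Atp2a2 and Trpm7) were called, where 128 of all genes were called lower and 2478 higher.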

How the results depend on the processing

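Atp2a2 and Orai1 in MUT against WT were called under every alternative, with log2 differences of 1.38 to 2.61 and 1.05 to 2.23. Scaling to the same FPKM sum raised the members called to 4 in MUT, 5 in GcKO and 2 in GcKO against AmcKO, and the list genes called to 37 in MUT (2 lower, 35 higher), 34 in GcKO (2 lower, 32 higher), 20 in GcKO against AmcKO (2 lower, 18 higher) and 1 (Selk) in GcKO against MUT. That scaling moves the median of all genes, as given above, and raised the calls among all 11233 genes as well. These were 253 lower and 4641 higher in MUT, and 241 lower and 4769 higher in GcKO. GcKO against AmcKO then had 128 lower and 2478 higher, and GcKO against MUT 36 lower and 39 higher. Quantile normalization gave 1 list gene, also Selk, in GcKO against MUT. With only the 2 groups compared in the fit, which leaves fewer libraries, 0 members were called in GcKO against WT and 0 list genes in GcKO against AmcKO. At an adjusted p below 0.01 there were 1 member in GcKO, and 9, 7 and 2 list genes in MUT, GcKO and GcKO against AmcKO. The last comparison gave 8 list genes at a mean FPKM of at least 5, 2 without the trend, 3 with a correction for mean abundance that was chosen after seeing the data and 2 with a fold change over 2, and leaving out 1 library gave 2 to 6. For AmcKO against WT, leaving out 1 library gave 0 to 1 list genes, Vdac1 without WT replicate 4 and Mcu without AmcKO replicate 5. The cause of these moves was not tested beyond what each construction shows.

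Among the members, signs turned only where the reported fit gave no call, and among the list genes named, Selk turned in GcKO against AmcKO with the same FPKM sum (0.05). For the members, with the same FPKM sum these were Trpm7 (0.56) and Atp2b1 (0.76) in MUT, and Orai1 (0.66) and Atp2b1 (0.68) in GcKO against AmcKO. With quantile normalization they were Trpm7 in AmcKO (-0.03) and Itpr1 in GcKO against AmcKO (-0.01). With a correction for transcript length, chosen after seeing the data, they were Atp2b1 in GcKO (-0.24) and AmcKO (-0.04), Trpm7 in AmcKO (-0.11), and Itpr1 (-0.04) and Orai1 (0.03) in GcKO against AmcKO. With the abundance correction they were Trpm7 in AmcKO (-0.08) and Itpr1 in GcKO against AmcKO (-0.02). Leaving out 1 library moved Trpm7 over -0.31 to 0.09 in MUT and -0.18 to 0.24 in AmcKO, Atp2b1 over -0.02 to 0.24 in GcKO and -0.10 to 0.03 in GcKO against AmcKO, and Orai1 over -0.11 to 0.06 there.

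Same-numbered libraries did not deviate together (correlations of 0.02, 0.01 and -0.03 for WT with AmcKO, and -0.02, 0.04 and -0.04 for MUT with GcKO). No pairing by number was seen, which does not exclude that such libraries were handled together. A fit with the replicate number as a block was possible for AmcKO against WT and GcKO against MUT, with only the 2 groups compared. It called 0 members, 0 list genes and 0 of all genes in both. The 2-group fit without the block called 8 of all genes lower and 19 higher in AmcKO against WT. In GcKO against MUT it called 7 lower and 4 higher.

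FPKM values give no read depth, and Cacna1h and Stim1 rest on so few fragments that their levels are uncertain.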
